A study of Xenopus laevis with 3 samples.

Results

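The low-UMI 42Sp cells are cells of the juvenile *Xenopus laevis* ovary that carried messenger RNA of the 42S particle proteins although few molecules were read from them. They were chosen on measured values. A cell was taken when it had at least 100 genes, at most 1.5% of its UMIs from 13 mitochondrial genes, 300 to 1500 UMIs in all and at least 5 UMIs of *42sp43.L* and *42sp50.L* together. A UMI (unique molecular identifier) counts 1 captured RNA molecule. The rule found 262 of the 19253 deposited cells, of which 17533 passed the gene and mitochondrial filters and 4216 of those lay in the UMI range.

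The study profiled 3 ovaries by droplet single-cell RNA sequencing, each isolated singly from an untreated wild-type juvenile between NF stages 62 and 66, after collagenase dissociation and straining. The 3 biological replicates form a single group, so every comparison here is between classes of cells within the same ovaries. The samples are labelled as germline cells, but cells with somatic marker RNA were present, as given below. The libraries held 54585110, 50307231 and 34060121 UMIs, and 6 to 16 barcodes were shared between a pair of libraries. None of the barcodes of the low-UMI 42Sp cells occurred in another library.

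In the frog ovary, young oocytes store 5S ribosomal RNA and transfer RNA in advance of ribosome assembly, packed in a cytoplasmic particle that sediments at 42S. Its proteins are 42Sp43, a zinc finger protein that binds 5S RNA, and 42Sp50, a relative of translation elongation factor 1A that binds transfer RNA. Nurse cells are germ cells that grow in a cyst with the future oocyte and pass cytoplasm to it instead of becoming eggs. Of the markers given for the nurse-like label, *42sp43.L* and *42sp50.L* chose the cells and so cannot check it, and the cells are called here by these values.

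The low-UMI 42Sp cells were spread unevenly over the ovaries. Ovary 1 held 8, ovary 2 held 34 and ovary 3 held 220. They made up 0.771% of the cells in the UMI range in ovary 1 (95% Clopper-Pearson interval 0.333 to 1.51), 4.81% in ovary 2 (3.35 to 6.66) and 8.90% in ovary 3 (7.81 to 10.1). These intervals do not overlap, and they cover counting error only. Ovary 3 therefore supplied most of the cells, and every sum over ovaries is dominated by it.

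The members of the 3 ovaries had similar depths, which the UMI range of the rule sets in large part. The median was 1076 UMIs and 804 genes per cell in ovary 1, 902 UMIs and 736 genes in ovary 2, and 1028.5 UMIs and 797.5 genes in ovary 3. The shallowest cells deposited had 503, 500 and 500 UMIs, so the lower bound of the rule removed no cell. In ovary 3 the low-UMI 42Sp cells took 8.48% to 9.22% of the cells in each of 5 UMI bins.

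The threshold of 5 UMIs cut through a continuous range. In ovary 3, 638, 715, 488, 262 and 148 cells of the UMI range had 0, 1, 2, 3 and 4 UMIs of *42sp43.L* and *42sp50.L*, and 77, 46 and 24 cells had 5, 6 and 7. Just inside the threshold, exactly 5 UMIs were read in 4, 9 and 77 cells of ovaries 1, 2 and 3, and just outside it exactly 4 in 7, 8 and 148 cells. At least 10 UMIs were read in 1, 11 and 47 members. The largest number in 1 cell was 19, 21 and 41, and in ovary 3 no gap separated cells with and without these RNAs.

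**Figure D1:**
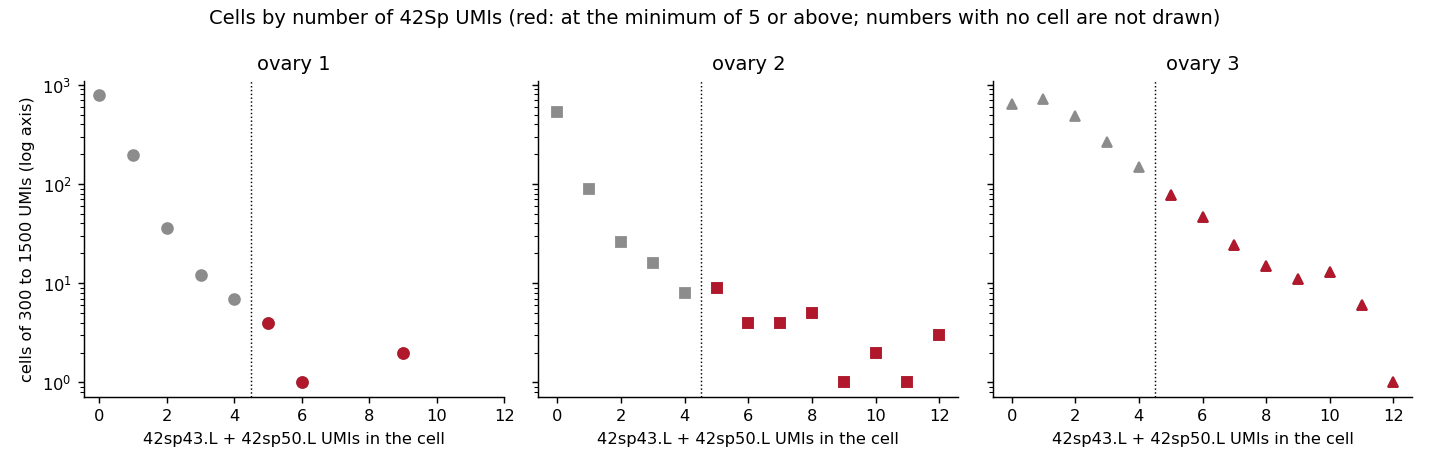
Number of cells of 300 to 1500 UMIs (log axis) with each number of *42sp43.L* and *42sp50.L* UMIs from 0 to 12, per ovary, with the minimum of 5 marked by a dotted line and numbers that no cell had left out. In ovary 3 the numbers went on across the line without a gap, with 148 cells at 4 UMIs and 77 at 5.

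Both RNAs were also read outside germ cells. Low-UMI somatic cells were defined as cells of the same UMI range with at least 5 UMIs from 147 somatic marker genes and none of *ddx4* or *dazl*, which encode germ cell RNA-binding proteins; there were 580, 210 and 889 of them, at median depths of 1109.5, 1041.5 and 1169 UMIs. A UMI of *42sp43.L* or *42sp50.L* was read in 21.2%, 10.5% and 66.1% of these cells, taken here as a background level. Free RNA itself was not measured. At least 5 such UMIs were read in 0 of 580, 0 of 210 and 8 of 889 of them, 0.900% in ovary 3 (interval 0.389 to 1.77). Those 8 cells of ovary 3 are themselves low-UMI 42Sp cells.

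Germ cell RNA was present in most members. At least 1 UMI of *ddx4.L*, *ddx4.S* or *dazl.L* was read in 6 of 8 members of ovary 1, 32 of 34 of ovary 2 and 173 of 220 of ovary 3. At least 5 somatic-marker UMIs were read in 1, 0 and 30 members. The combination of 5 or more somatic-marker UMIs and no germ cell UMI occurred in the 8 members of ovary 3 named above and in none of ovaries 1 and 2.

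The low-UMI 42Sp cells were compared with 3 classes. The deep 42Sp-rich cells had over 3000 UMIs and at least 50 UMIs of *42sp43.L* and *42sp50.L* per 10000; there were 107, 689 and 646 of them, with medians of 62639, 23286 and 19857 UMIs. Each was thinned at random to the UMI total of a member of the same ovary, so that both classes had the same depth. The low-UMI germ cells had the members' UMI range, at least 3 UMIs of *ddx4* and *dazl* and under 5 of the 42Sp genes, and numbered 118, 308 and 393. The low-UMI somatic cells were those above. Levels are UMIs summed over the cells of a class in an ovary, per 10000 of their UMIs.

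The 2 genes that chose the cells are given as a description. *42sp43.L* stood at 34.1, 63.4 and 36.4 per 10000 in low-UMI 42Sp cells of ovaries 1, 2 and 3, against 48.3, 59.0 and 54.0 in thinned deep cells and 1.45, 1.91 and 5.15 in low-UMI germ cells. *42sp50.L* stood at 37.5, 30.1 and 42.1 in low-UMI 42Sp cells, against 61.2, 60.9 and 73.4 in thinned deep cells and 2.00, 1.26 and 5.87 in low-UMI germ cells. The members had less *42sp50.L* than the deep cells in every ovary; the deep cells had to reach a stricter level per UMI, so this order is set in part by the choice. In low-UMI somatic cells *42sp43.L* was at 0.795, 0.789 and 4.39 and *42sp50.L* at 1.48, 0.557 and 6.19 per 10000. The low-UMI germ cells of ovary 3 thus lay near the low-UMI somatic cells of that ovary, and the source of these UMIs was not tested.

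*gtf3a.L*, which encodes transcription factor IIIA, the activator of 5S RNA genes that also binds the stored 5S RNA, was not used by the rule. It stood at 17.1, 11.8 and 9.56 per 10000 in low-UMI 42Sp cells, against 15.4, 13.4 and 14.0 in thinned deep cells, 3.90, 3.73 and 3.80 in low-UMI germ cells and 0.652, 0.278 and 2.45 in low-UMI somatic cells. Every value of the low-UMI 42Sp cells lay above every value of the low-UMI germ cells, while the ranges of the low-UMI 42Sp and deep cells overlapped.

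*igfbp5.S*, which encodes a secreted binding protein of insulin-like growth factors, was the remaining marker given for these cells, and the rule did not use it. It was read in 1 of 8, 12 of 34 and 21 of 220 members. Its level was 1.14, 4.16 and 0.938 per 10000 in low-UMI 42Sp cells, from 1, 13 and 21 UMIs, against 0.978, 2.59 and 1.27 in thinned deep cells and 0.181, 0.648 and 0.313 in low-UMI germ cells. The level in somatic cells was 0.159, 0.603 and 0.400, near that of the low-UMI germ cells. In every class the highest value came from ovary 2.

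**Figure D2:**
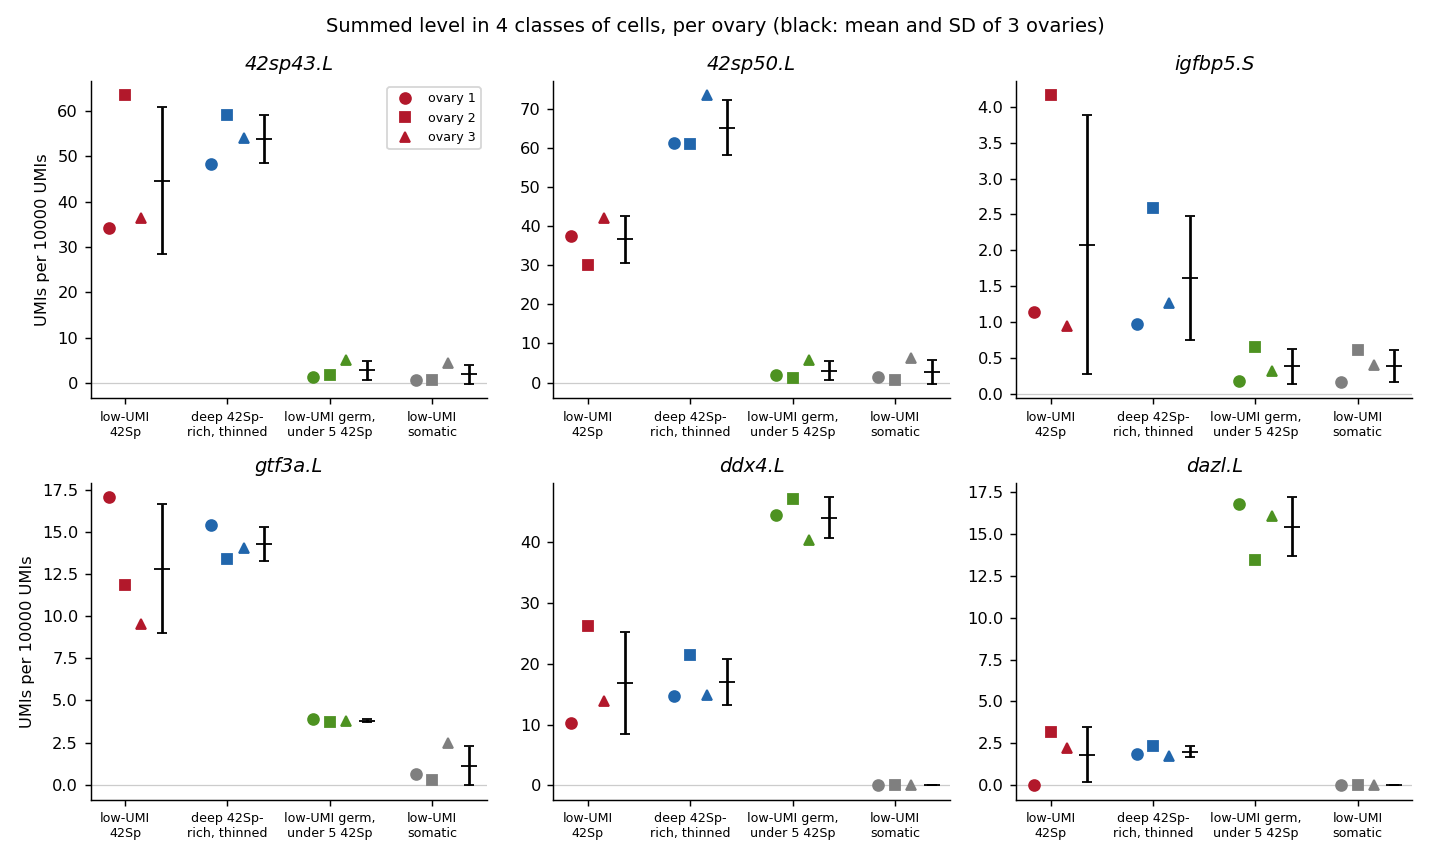
UMIs per 10000 of 6 genes in low-UMI 42Sp cells, thinned deep 42Sp-rich cells, low-UMI germ cells and low-UMI somatic cells, with 1 point per ovary and the mean and SD of 3 ovaries in black. *gtf3a.L* lay at 9.56 to 17.1 in low-UMI 42Sp cells and at 3.73 to 3.90 in low-UMI germ cells, and *dazl.L* at 0 to 3.20 and at 13.4 to 16.8. The low-UMI germ cells were chosen on *ddx4* and *dazl*, and the classes also on *42sp43.L* and *42sp50.L*. The contrasts of these genes are thus set in large part by the choice.

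The germ cell genes *ddx4.L* and *dazl.L* were not called against the deep cells. *ddx4.L* had 10.2, 26.2 and 13.9 per 10000 in low-UMI 42Sp cells, against 14.8, 21.4 and 14.8 in thinned deep cells. *dazl.L* had 0, 3.20 and 2.23, against 1.87, 2.37 and 1.76, and neither difference passed the test (adjusted p = 0.685 and 0.952, edgeR with a replicate block). The low-UMI germ cells, which were chosen on these genes, had 40.5 to 47.2 of *ddx4.L* and 13.4 to 16.8 of *dazl.L*. The whole list of 17 germ cell identity genes summed to 21.6, 64.0 and 32.3 per 10000 in low-UMI 42Sp cells, against 18.9, 37.3 and 24.5 in deep cells before thinning and 104, 101 and 94.0 in low-UMI germ cells. This list holds *ddx4* and *dazl*, so its level in the low-UMI germ cells is set in large part by their choice. Of 12 tested against the deep cells, *kif4a.S* was called higher and none lower, and the median log2 fold change was 0.46. In both ovaries 9 of the 12 were higher, where 2998 of all 7165 genes tested were.

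Single cells were also compared with every cell thinned to 300 UMIs. Before thinning, a *ddx4.L* UMI was read in 75.0%, 91.2% and 70.5% of low-UMI 42Sp cells and in 96.6%, 100% and 99.2% of low-UMI germ cells. At 300 UMIs it was found in 25.0%, 47.1% and 35.0% of low-UMI 42Sp cells, in 26.2%, 47.2% and 38.5% of deep cells and in 75.4%, 77.6% and 74.3% of low-UMI germ cells. A *42sp50.L* UMI was found in 62.5%, 55.9% and 70.5% of low-UMI 42Sp cells, against 74.8%, 75.5% and 84.4% of deep cells. Before thinning the members had 100%, 94.1% and 98.6%. The *ddx4.L* shares of the low-UMI germ cells, which needed 3 *ddx4* or *dazl* UMIs, are set in large part by that choice. So are the *42sp50.L* shares of the members and of the deep cells, both chosen on 42Sp UMIs. The median number of genes per cell at that depth was 272.5, 279 and 276 in low-UMI 42Sp cells and 262, 266 and 261 in deep cells, higher in the low-UMI 42Sp cells in all 3 ovaries. No test was run on these values, since an exact two-sided permutation test of 3 ovaries against 3 cannot give a p under 0.1.

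Sums of 2 ovaries entered the tests across genes, because ovary 1 had under 10 low-UMI 42Sp cells. The first comparison set low-UMI 42Sp cells against the thinned deep 42Sp-rich cells of the same ovary, and asked in what the shallow cells differ from the deep ones beyond depth. In edgeR's quasi-likelihood test without a replicate block, 0 of 7165 genes passed an adjusted p of 0.05 (0.0%), 855 had an unadjusted p under 0.05 (11.9%), and DESeq2 called 0. Both sums of an ovary come from the same animal, and with the ovary as replicate block 313 of 7165 genes passed (4.37%), 202 higher (2.82%) and 111 lower (1.55%). The calls below are those of the blocked fit, which has 1 residual degree of freedom per gene. They depend on the fit and on the deep cells chosen: DESeq2 with the block called 0, and 0 of 1899 genes passed when only the 78 and 119 deep cells of 3000 to 10000 UMIs of ovaries 2 and 3 were used (199 at an unadjusted p under 0.05).

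A part of the ribosomal protein genes was lower in low-UMI 42Sp cells. The list took 1522, 1145 and 1446 of 10000 UMIs in low-UMI 42Sp cells (mean 1371 ± 199, SD, n = 3), against 2264, 2098 and 2163 in deep cells before thinning (2175 ± 83.8). The low-UMI germ cells, at 1575, 1374 and 1454, lay close to the low-UMI 42Sp cells, and the low-UMI somatic cells were at 3216, 2925 and 3279. Of 146 ribosomal protein genes tested, 26 were lower in low-UMI 42Sp cells than in deep cells, none was higher and 120 were not called. In both ovaries 140 of the 146 were lower, where 1686 of all 7165 genes tested were. The median log2 fold change of the 146 was -1.01, against -0.03 over all genes tested. None was called lower with DESeq2, with no filter on low counts, for members with at least 10 42Sp UMIs, when ovary 1 took the place of ovary 2 or 3 (medians -0.65 and -0.64), or against deep cells of 3000 to 10000 UMIs (median -0.48), so the count of calls depended on the setting while the median stayed below 0.

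Single ribosomal protein genes showed the same size of difference. *rps20.S* had 17.0 and 18.3 per 10000 in low-UMI 42Sp cells of ovaries 2 and 3, against 34.8 and 35.9 in thinned deep cells, a log2 fold change of -1.37 ± 0.38 (SE; adjusted p = 0.0328, edgeR with a replicate block). *rpl27.S* had 3.52 and 7.51 in low-UMI 42Sp cells, against 12.9 in both ovaries in thinned deep cells (log2 fold change -1.52). The L and S copies of a *Xenopus laevis* gene are near-identical in places, and how the authors' counting split reads between them was not examined.

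Genes of the respiratory chain that are encoded in the nucleus followed. They summed to 190, 200 and 179 per 10000 in low-UMI 42Sp cells, against 306, 329 and 272 in deep cells before thinning, and 224, 232 and 216 in low-UMI germ cells. Of 124 tested, 13 were lower and none was higher, where 1.55% of all genes were lower. In both ovaries 93 of the 124 were lower, where 1686 of all 7165 genes tested were. The median log2 fold change of the list was -0.90. *cox7b.L*, a subunit of cytochrome c oxidase, had 0.960 and 0.759 per 10000 in low-UMI 42Sp cells, from 3 and 17 UMIs, against 4.16 and 2.72 in thinned deep cells. The log2 fold change was -2.21 ± 0.42 (SE, adjusted p = 0.00159, edgeR with a replicate block). *ndufs8.L* of complex I and *uqcrb.S* of complex III fell by 1.65 and 1.67 on the log2 scale.

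*tomm22.L*, *fis1.L* and *cycs.L* were lower. *fis1.L* is named by the rule, and *tomm22.L* was chosen after its values were seen. *cycs.L* is on the apoptosis list and on the respiratory chain list too, so it is already counted among the 13 lower genes there. *tomm22.L*, a receptor of the protein import channel of the outer membrane, had 0.960 and 0.804 per 10000 in low-UMI 42Sp cells, from 3 and 18 UMIs. Thinned deep cells had 3.53 and 2.63. *fis1.L*, a receptor for mitochondrial fission, had 0.320 and 0.268 from 1 and 6 UMIs, against 1.06 and 1.04 (log2 fold change -2.18). *cycs.L*, cytochrome c, had 0.960 and 2.64 in low-UMI 42Sp cells, against 2.99 and 5.16 (log2 fold change -1.39). The RNAs made inside the mitochondrion were limited by the rule and are given as a description: *ATP6* had 3.20 and 2.41 per 10000 in low-UMI 42Sp cells, against 10.4 and 5.13 in thinned deep cells, and the 13 genes together 31.4 and 41.9, against 73.8 and 33.0 in deep cells before thinning.

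The elongation and actin lists gave 3 calls, too few to set beside the 2.82% higher and 1.55% lower of all genes. Of 9 translation elongation genes tested, *eef1b2.L*, an exchange factor subunit, was lower (8.64 and 15.8 per 10000 in low-UMI 42Sp cells, against 24.5 and 26.5 in thinned deep cells). Of 23 actin genes tested, *pfn1.S*, which encodes profilin, was lower (9.92 and 7.82 against 21.8 and 16.1), and *gsn.S*, which encodes the filament-severing protein gelsolin, was higher (1.28 and 3.89 against 0.7996 and 0.832). *tmsb4x.L*, thymosin beta 4, which sequesters actin monomers, had 19.8 and 22.7 in low-UMI 42Sp cells, against 32.0 and 37.3 in thinned deep cells. It did not pass the test (log2 fold change -1.07, adjusted p = 0.0839, edgeR with a replicate block). The study named it among genes overexpressed in its first nurse-like cluster, and these deep cells were not the reference there.

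By the rule for named genes, the largest falls also took in *atox1.S*, a copper chaperone, *txnl4b.S*, *LOC108701309*, *LOC121401439* and *xetrov90011961m.S*. *atox1.S* had 0 and 5 UMIs in low-UMI 42Sp cells and *txnl4b.S* 1 and 2, so their fold changes rest on very few molecules. *LOC121401439* had 0 and 53 UMIs there, 0 and 2.37 per 10000, against 4.03 and 6.63 per 10000 in thinned deep cells.

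The rises that the rule for named genes gave included *larp6.L*, *rab11fip1.L* and *parn.L*. *larp6.L*, a La-related RNA-binding protein, had 2.27, 0.320 and 3.08 per 10000 in low-UMI 42Sp cells, from 2, 1 and 69 UMIs, against 0.178, 0.0800 and 0.635 in thinned deep cells, a log2 fold change of 2.01 ± 0.42 (SE; adjusted p = 0.00394, edgeR with a replicate block). *rab11fip1.L*, an effector of the recycling endosome protein Rab11, had 2.27, 0.320 and 2.50, against 0.978, 0.144 and 0.530 (log2 fold change 1.88). *parn.L*, a poly(A)-specific ribonuclease, had 4.55, 0.960 and 2.90, against 1.33, 0.320 and 0.681 (log2 fold change 1.72).

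The rule for named genes asked for the same direction in ovaries 2 and 3, so agreement between them was set by it. In ovary 1, which the rule did not use, each of these 3 genes was higher too. The 8 low-UMI 42Sp cells there gave only 2 UMIs of *larp6.L* and 2 of *rab11fip1.L*. In ovary 2 the low-UMI 42Sp cells gave 1, 1 and 3 UMIs of the 3 genes. *larp6.L* and *rab11fip1.L* come from a list the study drew up on these samples for nurse-like clusters NC2 and NC3, which is not independent evidence; they were 2 of the 6 genes of that list tested, and the other 4 were not called. *akap1.S*, which anchors protein kinase A at mitochondria, *jakmip1.S*, *LOC121402231* and *LOC121402047* were further rises named by the rule. *LOC121402231* had 3.41, 0.640 and 4.96 per 10000 in low-UMI 42Sp cells, 0.712, 0.0320 and 0.575 in thinned deep cells and 25.9, 4.21 and 9.60 in low-UMI germ cells. *LOC121402047* had 3.41, 0.320 and 4.07 in low-UMI 42Sp cells, against 3.91, 0.0640 and 0.999 in thinned deep cells, and was not higher in ovary 1.

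A pair of cell cycle genes were higher as well. *mki67.L*, the proliferation marker Ki-67, had 4.55, 1.60 and 4.42 per 10000 in low-UMI 42Sp cells, from 4, 5 and 99 UMIs. It had 0.8004, 0.448 and 1.105 in thinned deep cells and 1.54, 1.36 and 2.96 in low-UMI germ cells. The log2 fold change against the deep cells was 1.68 ± 0.36 (SE, adjusted p = 0.00602, edgeR with a replicate block). *kif4a.S*, a chromosome-associated kinesin, had 1.14, 0.960 and 1.61, against 0.178, 0.0959 and 0.333 (log2 fold change 2.14). *mki67.L* was the only one called of 6 genes tested of the list for stem and dividing germ cells, and *cdk1.L*, the mitotic kinase, stood at 0.320 and 0.715 in low-UMI 42Sp cells and 0.304 and 0.772 in thinned deep cells.

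Of the somatic lists, collagen stroma and red blood cell genes held calls. None of 3 keratin epithelium genes tested (median log2 fold change -0.40) and not the 1 leukocyte gene tested was called. The 29 collagen stroma genes summed to 10.2, 2.24 and 21.3 per 10000 in low-UMI 42Sp cells, from 9, 7 and 476 UMIs, against 0.505, 0.938 and 0.938 in deep cells before thinning and 48.0, 237 and 197 in low-UMI somatic cells. All 4 of those tested were called, such as *col1a1.L* (0 and 3.93 per 10000 in low-UMI 42Sp cells, 0.0959 and 0.318 in thinned deep cells, and 50.9 and 47.6 in low-UMI somatic cells). The globin genes *hba1.L* and *hbg1.L* were called on 2 and 58 and on 1 and 45 UMIs. Of the 21 immediate early and stress genes tested, *fos.S*, *dusp1.L* and *hspa5.L* were higher and none was lower, where 2.82% of all genes were higher. The median log2 fold change of the list was -0.17, with 8 genes higher and 6 lower in both ovaries. In low-UMI 42Sp cells of ovaries 2 and 3 *fos.S* had 3 and 24 UMIs and *dusp1.L* 1 and 20, so these calls rest on few molecules. *fos.S* had 0.960 and 1.07 per 10000 in low-UMI 42Sp cells, 0.128 and 0.151 in thinned deep cells, and 5.80 and 3.57 in low-UMI somatic cells.

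When members with over 2 somatic-marker UMIs were left out, *fos.S* had a log2 fold change of 0.01 and *ccn1.S*, a secreted matrix protein named by the rule, one of -0.95. No collagen or globin gene was called, but *hba1.L*, *col1a1.L*, *col1a1.S*, *sparc.L* and *dusp1.L* were not among the genes tested under this choice. That choice removes somatic UMIs by construction. Under it 127 of 146 ribosomal protein genes were lower, against 26 with all members. Over all genes 243 of 6914 were lower and 122 higher under it, against 111 lower and 202 higher of 7165 with all members. *larp6.L*, *rab11fip1.L*, *parn.L*, *mki67.L*, *kif4a.S*, *cox7b.L* and *tomm22.L* were still called (adjusted p between 0.00752 and 0.0139, edgeR with a replicate block). *fis1.L*, *cycs.L*, *atox1.S*, *txnl4b.S* and *hspa5.L* were not (adjusted p between 0.0663 and 0.106, edgeR with a replicate block).

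None of the lists of the growing oocyte gave a call against the deep cells. The 9 oocyte transcription and growth factor genes summed to 3.41, 5.76 and 4.87 per 10000 in low-UMI 42Sp cells. In deep cells before thinning they summed to 7.95, 9.07 and 7.37. In both ovaries 4 of the 5 tested were lower, where 1686 of all 7165 genes tested were. Of the 5, 2 had an unadjusted p under 0.05 in edgeR without the block, none was called, and their median log2 fold change was -0.98. None of 6 egg coat genes, 11 Balbiani body and vegetal RNAs, 31 genes of maternal RNA storage, 39 genes of ribosome biogenesis, 5 meiotic genes and 5 genes of the 42S particle list was called, with median log2 fold changes of -0.33, -0.24, -0.0029, -0.25, 0.06 and -0.58. At an unadjusted p under 0.05 in edgeR without the block, 1 of the 11 Balbiani body and vegetal RNAs and 3 of the 39 ribosome biogenesis genes passed, and 0 of the other 4 lists; DESeq2 called none. *velo1.L*, the RNA of a Balbiani body protein, had 1.14, 2.24 and 7.95 per 10000 in low-UMI 42Sp cells, against 6.94, 2.08 and 5.61 in thinned deep cells. *gtf3a.L* had a log2 fold change of -0.75 ± 0.37 (SE; adjusted p = 0.213, edgeR with a replicate block) and *igfbp5.S* one of -0.31 ± 0.37 (adjusted p = 0.654). A p above the threshold does not show that these levels are equal.

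Scaling set the balance of higher and lower calls. Scaled by UMI totals alone, the genes tested had a median log2 fold change of 0.26 in place of -0.03, and 565 genes were higher and 112 lower; with DESeq2's size factors in edgeR 272 were higher and 283 lower. The ribosomal protein genes had a median of -0.63 under total scaling, with 43 lower and 1 higher of 146, so they stayed below the median of all genes.

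The differences between the low-UMI 42Sp cells and the deep cells can be set beside the depth of 42Sp-rich cells. In cells with at least 50 42Sp UMIs per 10000 and 1500 to 3000, 3000 to 10000, 10000 to 30000 and over 30000 UMIs, ribosomal protein genes took 1337, 2128, 2054 and 2142 per 10000 in ovary 2 and 1562, 2075, 2145 and 2180 in ovary 3. The low-UMI 42Sp cells, at 1145 and 1446, were next to the shallowest of these bands and below it in both ovaries. *mki67.L* was at 0.502, 0.392, 0.459 and 0.545 in ovary 2 and at 3.28, 1.24, 1.03 and 0.848 in ovary 3. These bands were summed without thinning and were not tested; a cell that lost part of its RNA and a cell that made less cannot be told apart by its UMI total.

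**Figure D3:**
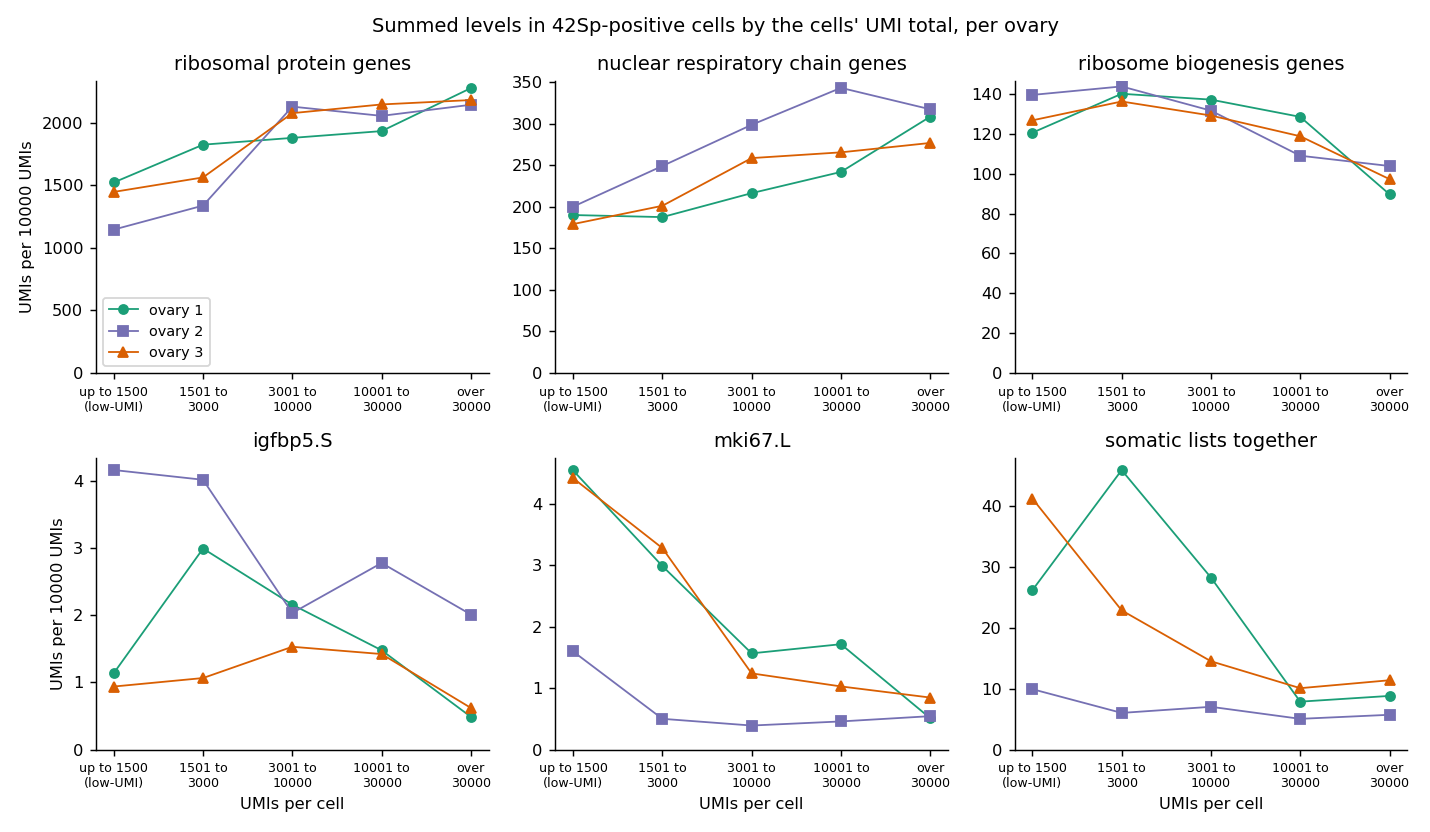
UMIs per 10000 of 4 gene lists and 2 genes in low-UMI 42Sp cells (leftmost band, up to 1500 UMIs) and in cells with at least 50 42Sp UMIs per 10000 in 4 higher bands of UMI total, with 1 line per ovary. Ribosomal protein genes were at 1145 to 1522 in the low-UMI 42Sp cells and at 2142 to 2275 in cells over 30000 UMIs.

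The second comparison set low-UMI 42Sp cells against low-UMI germ cells with under 5 42Sp UMIs, and asked how cells of the same UMI range differ with these RNAs. The classes were not thinned to each other, and their median UMIs per cell were 1076, 902 and 1028.5 in low-UMI 42Sp cells, against 945, 1004 and 1114 in low-UMI germ cells. Without a replicate block 0 of 6091 genes passed in edgeR (0.0%), 1351 had an unadjusted p under 0.05 (22.2%) and DESeq2 called 18, all lower. With the ovary as replicate block 935 passed (15.4%), 449 higher (7.37%) and 486 lower (7.98%). The reference cells needed 3 *ddx4* or *dazl* UMIs and the members none, so the levels of these genes were set by the choice and were not tested. What else that choice of reference cells set was not tested.

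Genes of meiotic recombination and synapsis were lower in low-UMI 42Sp cells. The 25 genes of this list summed to 2.27, 12.8 and 3.89 per 10000 in low-UMI 42Sp cells, from 2, 40 and 87 UMIs, against 49.2, 48.8 and 54.0 in low-UMI germ cells and 1.63, 4.13 and 1.75 in deep cells before thinning. Of 21 tested, 17 were lower in low-UMI 42Sp cells and none was higher, where 7.98% of all genes were lower. The median log2 fold change of the list was -3.56, against 0.01 over all genes. In low-UMI 42Sp cells 12 of the 21 genes had only 1 to 3 UMIs over the 2 ovaries, so the median rests on few molecules. Genes with so few UMIs there could pass the filter on low counts only through the low-UMI germ cells. The count of falls and the median are therefore set in part by the filter and by the choice of reference cells. The list sums hold all 25 genes, tested or not.

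*sycp1.L*, the transverse filament of the synaptonemal complex, had 0, 0 and 2 UMIs in low-UMI 42Sp cells of ovaries 1, 2 and 3, against 3.54, 5.67 and 5.44 per 10000 in low-UMI germ cells. Over ovaries 2 and 3 that is 2 UMIs in low-UMI 42Sp cells and 401 in low-UMI germ cells, 70.6-fold lower per UMI (95% counting interval 19.4 to 585). Such folds, here and below, pool the 2 ovaries without their pairing. Ovaries 2 and 3 gave 31252 and 223820 UMIs of low-UMI 42Sp cells, against 308675 and 415504 of low-UMI germ cells. Differences between ovaries thus enter the folds, and the intervals cover counting error only. *hormad1.S*, which marks unsynapsed chromosome axes, had 4 against 402 UMIs, 35.4-fold lower (13.7 to 131). *dmc1.L*, the meiotic strand exchange protein, had 2 against 213, 37.5-fold lower (10.3 to 312).

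*rec8.L*, *stag3.L* and *smc1b.L* encode meiotic cohesin subunits. *rec8.L* had 1 UMI in low-UMI 42Sp cells against 160 in low-UMI germ cells, 56.4-fold lower (95% counting interval 9.97 to 2240), and *stag3.L* 3 against 80, 9.39-fold lower (3.1 to 46.5). *smc1b.L* had 4.80 and 0.983 per 10000 in low-UMI 42Sp cells, against 9.10 and 11.02 in low-UMI germ cells, a log2 fold change of -2.34 ± 0.51 (SE; adjusted p = 0.000345, edgeR with a replicate block), and it made up 15 of the 40 meiotic UMIs of ovary 2. *mnd1.L*, *psmc3ip.L* and *terb1.L* were among the genes tested and not called. *mnd1.L* had 1.92 and 0.536 per 10000 in low-UMI 42Sp cells and 0.648 and 0.578 in low-UMI germ cells.

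**Figure D4:**
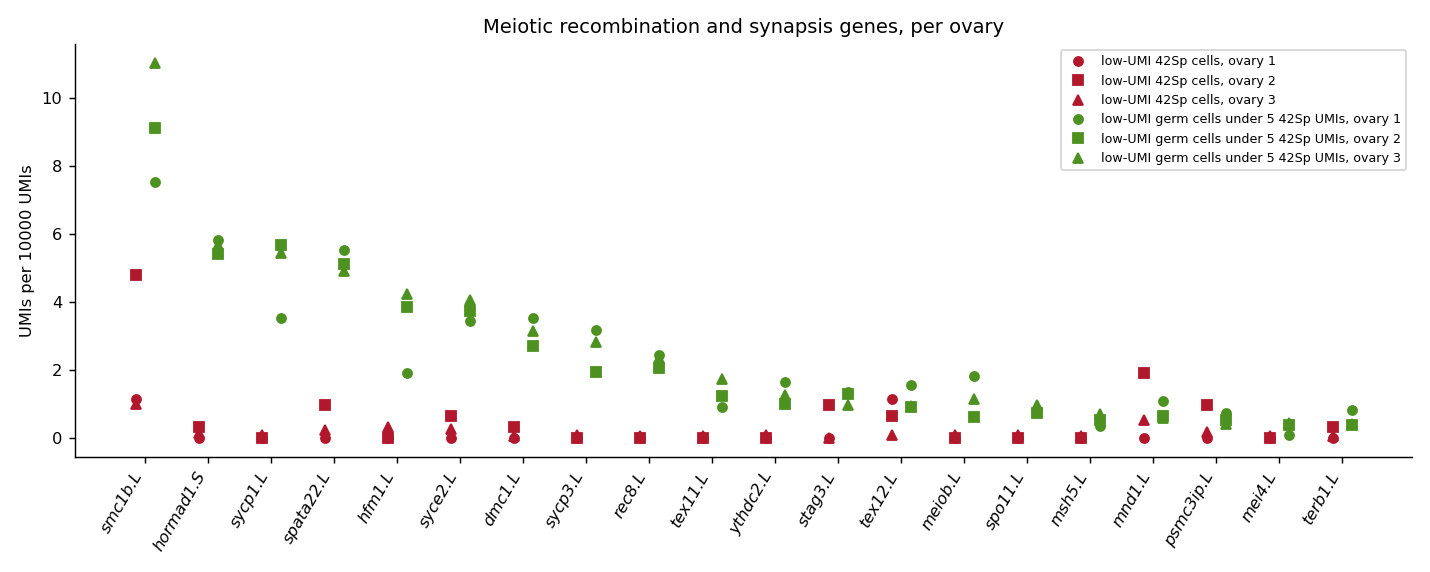
UMIs per 10000 of 20 of the meiotic genes tested, in low-UMI 42Sp cells (left point of each gene) and low-UMI germ cells (right point), with 1 symbol per ovary. *sycp1.L* lay at 0 to 0.0894 in low-UMI 42Sp cells and at 3.54 to 5.67 in low-UMI germ cells, and *mnd1.L* overlapped.

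*sycp1.L*, *hormad1.S*, *dmc1.L*, *rec8.L*, *sycp3.L* of the chromosome axis, *smc1b.L*, *spata22.L* and *syce2.L* were lower and called in all 14 other settings with the replicate block, DESeq2 among them. These settings refit overlapping cells of the same ovaries, so they are not independent tests. Apart from *smc1b.L*, these genes had only 1 to 8 UMIs in low-UMI 42Sp cells of ovaries 2 and 3 together. The limits given above for the meiotic list hold for these calls too. The list the study drew up from genes low in its first nurse-like cluster had 15 of 16 tested genes lower (median -3.09), but it was chosen on these samples and shares 6 of its 20 genes with the meiotic list, so it is not independent evidence. *faim2.L* of that list, a gene named for inhibiting apoptosis, had 0.320 and 0.223 per 10000 in low-UMI 42Sp cells, against 3.76 and 4.31 in low-UMI germ cells.

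By the rule for named genes, 5 genes without any UMI in low-UMI 42Sp cells were among the largest falls. These 5 could pass the filter on low counts only through the low-UMI germ cells. *LOC108713605* had 271 UMIs in low-UMI germ cells and was at least 31.8-fold lower in low-UMI 42Sp cells, taking 3 UMIs over the group as the floor. *atp8a1.L*, a phospholipid flippase, was at least 10.3-fold lower, *c3h12orf40.L* at least 10.6-fold, *LOC121395004* at least 10.3-fold and *foxd4l1.2.L*, a forkhead factor, at least 9.98-fold. *LOC108700826* had 1 against 157 UMIs. Outside the lists of meiosis, the chaperone gene *hsp90aa1.1.L* had 9.60 and 1.88 per 10000 in low-UMI 42Sp cells, against 24.9 and 17.0 in low-UMI germ cells, and *tdrd7.L*, a germ granule protein, had 2.24 and 0.491 against 2.92 and 2.58. Of 16 immediate early and stress genes tested, *hsp90aa1.1.L* among them, 3 were higher and 1 lower (median log2 fold change 0.67). Of 9 germ cell identity genes tested, *tdrd7.L* among them, 1 was higher and 1 lower (median -0.13). On that list *dppa2.L* was higher in all 11 other blocked settings that tested it, and called in 8. Over all genes 7.37% were higher and 7.98% lower.

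Some genes of oocyte RNA storage and localization were higher. Of 8 Balbiani body and vegetal RNAs tested, 5 were higher in low-UMI 42Sp cells than in low-UMI germ cells and none was lower. Over all genes 7.37% were higher. The median log2 fold change of the list was 1.39. *velo1.L* had 2.24 and 7.95 per 10000 in low-UMI 42Sp cells, against 0.130 and 1.85 in low-UMI germ cells and 0.0464 and 1.59 in low-UMI somatic cells, a log2 fold change of 2.59 ± 0.45 (SE; adjusted p = 5.99e-06, edgeR with a replicate block). *rbpms2.L*, an RNA-binding protein of the Balbiani body, had 1.92 and 4.07, against 0.518 and 0.939 (log2 fold change 2.14), and *vegt.L*, the localized T-box factor, 0.960 and 3.89, against 0.648 and 1.61 (log2 fold change 1.25).

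Of 28 genes of maternal RNA storage and repression tested, 6 were higher, none was lower and 22 were not called. Over all genes 7.37% were higher and 7.98% lower. The median log2 fold change of the list was 0.62. *zar1.L*, a zygote arrest protein that binds maternal RNA, had 5.69, 4.80 and 5.50 per 10000 in low-UMI 42Sp cells, against 0.635, 1.13 and 1.97 in low-UMI germ cells and 0.430, 0 and 1.55 in low-UMI somatic cells. *eif4enif1.S*, the 4E transporter that represses translation, had 5.44 and 5.50, against 2.24 and 2.50 (log2 fold change 1.22). *btg4.L*, which recruits the deadenylase to maternal RNA in mouse oocytes, had 14.8, 1.92 and 8.71, against 0.907, 0.130 and 2.33, and was among the largest rises by the rule for named genes.

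All 5 egg coat genes tested were higher, where 7.37% of all genes were, but ovary 2 gave little of them. The 9 genes of the list had 17, 5 and 558 UMIs in low-UMI 42Sp cells, or 19.3, 1.60 and 24.9 per 10000, against 3.17, 0.324 and 8.66 in low-UMI germ cells and 2.08, 0.186 and 8.11 in low-UMI somatic cells. *zpd.L*, a zona pellucida protein of the egg coat, had 1.28 and 2.90 in low-UMI 42Sp cells, against 0.194 and 1.01 in low-UMI germ cells, a log2 fold change of 1.84 ± 0.43 (SE; adjusted p = 0.000813, edgeR with a replicate block). The levels of the low-UMI germ cells lay close to those of the somatic cells, so the fold changes of this list are set against that background.

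Of the 5 genes of the 42S particle list tested, 1 was higher. *gtf3a.L* was higher in low-UMI 42Sp cells than in low-UMI germ cells by a log2 fold change of 1.49 ± 0.44 (SE; adjusted p = 0.00938, edgeR with a replicate block), and the ribosomal protein gene *rpl5.L*, whose product binds 5S RNA, did not pass (8.32 and 10.5 per 10000 against 5.09 and 6.98, log2 fold change 0.66). *igfbp5.S* was higher by 2.10 ± 0.50 (SE; adjusted p = 0.00108). The oocyte form of elongation factor 1A, *eef1a1o.S*, had 17.3 and 32.3 per 10000 in low-UMI 42Sp cells, against 2.24 and 10.7 in low-UMI germ cells (log2 fold change 2.21), and *tmsb4x.L* 19.8 and 22.7, against 7.55 and 7.70 (log2 fold change 1.48). The somatic cells had 25.3 to 49.3 of *tmsb4x.L*, so it is not limited to germ cells.

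Among ribosome biogenesis genes, 4 of 33 tested were higher and none was lower, where 7.37% of all genes were higher, so the count does not set the list apart. *nop56.L*, a core protein of the small nucleolar RNA particles, had 15.4 and 7.73 per 10000 in low-UMI 42Sp cells, against 5.18 and 3.23 in low-UMI germ cells, and *fbl.S*, fibrillarin, 1.28 and 1.03, against 0.356 and 0.241. The ribosomal protein genes did not stand apart in this comparison, with 2 higher and 1 lower of 146 and a median log2 fold change of -0.12. Of 121 nuclear respiratory chain genes 3 were higher and 7 lower. Over all genes 7.37% were higher and 7.98% lower, so these counts do not set the list apart. Within it *cox7b.L* was lower here too (0.960 and 0.759 against 2.11 and 2.60, log2 fold change -1.52).

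The largest rises by the rule for named genes were *XB5731801.S [provisional]*, *cldn6.1.S*, *velo1.L*, *MGC115216*, *XB5768883.L [provisional]*, *hba1.L*, *btg4.L* and *jakmip1.S*. *XB5731801.S [provisional]* had 42.1, 25.0 and 37.2 per 10000 in low-UMI 42Sp cells, against 2.81, 0.518 and 10.3 in low-UMI germ cells and 73.3, 44.5 and 66.4 in thinned deep cells. *cldn6.1.S*, a claudin of tight junctions, had 11.4, 11.8 and 11.6, against 1.27, 0.486 and 3.42 in low-UMI germ cells. Of the somatic lists, 6 of 6 collagen stroma genes, 3 of 3 keratin epithelium genes and 2 of 4 red blood cell genes tested were higher, and 0 of 1 leukocyte genes. Over all genes 7.37% were higher. No follicle lineage or endothelial gene passed the filter on low counts. The keratin list had 6.82, 3.52 and 8.18 per 10000 in low-UMI 42Sp cells and 7.61, 2.60 and 7.87 in deep cells before thinning. It had 8.70, 15.8 and 6.78 in low-UMI somatic cells, so this list, part of the 147 somatic marker genes, is not particular to the somatic class. *hba1.L* had 2 and 58 UMIs in low-UMI 42Sp cells, 0.640 and 2.59 per 10000, against 0.194 and 0.481 in low-UMI germ cells and 0.325 and 58.7 in low-UMI somatic cells. Somatic UMIs were concentrated in ovary 3, where the 147 marker genes took 41.2 per 10000 of the low-UMI 42Sp cells, against 26.2 in ovary 1 and 9.92 in ovary 2. Their part in the collagen and globin results was not tested. Leaving out members with over 2 such UMIs removes these RNAs from the members alone, so its outcome is set by the choice. Under it 2 of 2 collagen genes tested were lower, no red blood cell gene was called and *hba1.L* was not among the genes tested.

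**Figure D5:**
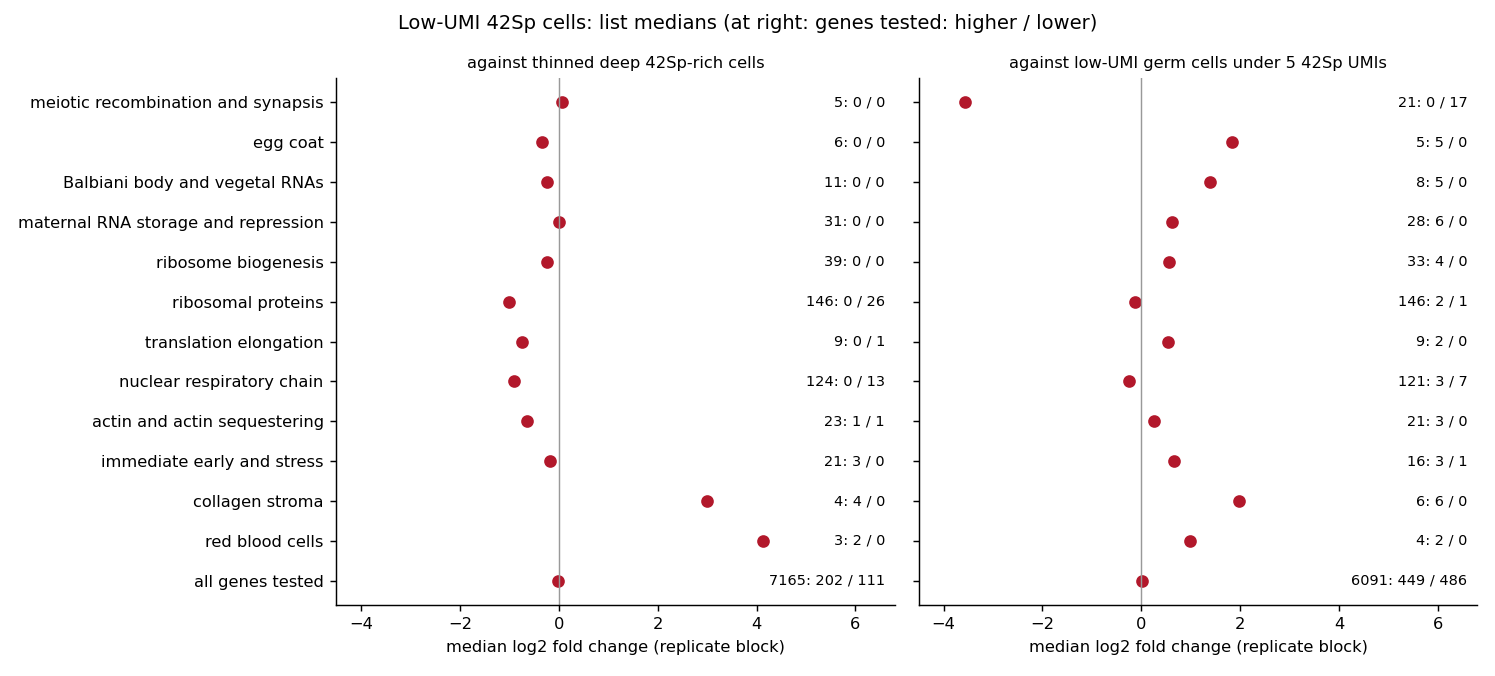
Median log2 fold change of each list in low-UMI 42Sp cells against thinned deep 42Sp-rich cells (left) and against low-UMI germ cells (right), from edgeR with the ovary as replicate block; the numbers at the right of each panel give genes tested, then higher and lower. Ribosomal proteins had a median of -1.01 on the left and -0.12 on the right, and meiotic genes 0.06 and -3.56.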

How the data were processed

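Whole dissociated ovaries were profiled with the GEM-X 3′ kit, about 10000 cells loaded per sample. The values are UMI counts per gene and cell as deposited by the authors, made with Cell Ranger 8.0.1 per the submitters' processing notes; the genome build is not given in the sources used here. The 24 features without a name were left out of the sums. Doublets were not called, and the authors' cell clusters were not used.

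The members and the gene lists were chosen with earlier results of these data known. Deep cells were thinned without replacement with a fixed seed. Sums per class and ovary with at least 10 cells were tested with edgeR 4.0.16 (quasi-likelihood, TMM, filterByExpr, Benjamini-Hochberg, two-sided), and with DESeq2 1.42.0 as an alternative, in R 4.3.3. The SE given with an edgeR log2 fold change is its absolute value divided by the square root of the F statistic. It is thus derived from the test and is not a measured spread between ovaries. Both sums of an ovary come from the same animal, so the ovary numbers pair them: same-numbered sums deviated together (correlation 0.459 against deep cells, 0.408 against low-UMI germ cells), and the fit with the ovary as replicate block is given beside the planned fit without it. Named genes are list genes and, per comparison, the 8 called genes with the largest rise and the 8 with the largest fall with a mean of 20 counts or more and 1 direction in both ovaries; because the planned fit called none, this rule was applied to the blocked calls, which was decided after seeing the values. Some genes that the rule names are not reported here. The scripts were tested on simulated data. Alternatives changed the tool, scaling, filter, ovaries, thinning and the limits on members; those that add ovary 1, scale by UMI totals, narrow the depth of the deep cells, ask 50 42Sp UMIs per 10000 of the members or combine the block with another change were added after seeing the data. Python 3.11.15 with numpy 2.4.6, pandas 2.3.3 and scipy 1.17.1 was used.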

Additional observations from a re-analysis of the deposited data

Results flagged for a closer look

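A share of the UMIs of the low-UMI 42Sp cells came from features without a name, which no comparison uses: 0.599%, 2.64% and 0.884% in ovaries 1, 2 and 3. The share was 0.0598%, 0.219% and 0.110% in deep 42Sp-rich cells, 0.894%, 0.522% and 0.765% in low-UMI germ cells, and 1.30%, 0.708% and 0.670% in low-UMI somatic cells. The value of ovary 2 was the highest of these 12.

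Cells of the UMI range with at least 5 UMIs of *42sp43.L* and *42sp50.L* were left out for over 1.5% mitochondrial UMIs. There were 7 of them in ovary 2 and 42 in ovary 3, and 0 in ovary 1. With a limit of 5% the low-UMI 42Sp cells numbered 302 in place of 262.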

How the results depend on the processing

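The number of genes called depended on the fit. Against thinned deep cells, the fit without a replicate block called 0 genes, 313 with the replicate block, 14 with no filter on low counts, 2 with ovary 1 added, 373 with ovary 1 and the block, and 59 without thinning. With the block, 677 were called with UMI totals as the only scaling, 0 with DESeq2 (271 at an unadjusted p under 0.05), 555 with DESeq2's size factors in edgeR, 19 with no filter, 4 for members with at least 10 42Sp UMIs, 477 at 5% mitochondrial UMIs, 873 without thinning and 0 against deep cells of 3000 to 10000 UMIs. Leaving out ovary 2 or 3 and adding ovary 1 gave 0 to 14 calls without the block and 19 to 92 with it.

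Against low-UMI germ cells, the fit without the block called 0, against 18 with DESeq2, 446 with no filter, 935 with the replicate block, 404 with ovary 1, 936 with ovary 1 and the block, 30 with UMI totals, and 7 for members with at least 50 42Sp UMIs per 10000. With the block, 57 were called by DESeq2, 256 with no filter, 162 for members with at least 10 42Sp UMIs and 557 for those with at least 50 per 10000. Leaving out ovary 2 or 3 gave 0 to 638 calls without the block and 146 to 499 with it.

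The members numbered 425 with at least 4 42Sp UMIs, 59 with at least 10, and 398 up to 2000 UMIs. At 600 UMIs per cell the median genes were 522 in low-UMI 42Sp cells and 479 in deep cells, *42sp43.L* was in 88.3% and 92.7%, and *igfbp5.S* in 4.79% and 8.94%. At 300 UMIs per cell, *42sp43.L* was in 67.5% of all low-UMI 42Sp cells and *igfbp5.S* in 4.0%, as means of 3 ovaries. For members with at least 10 42Sp UMIs, also at 300 UMIs, these means were 89.2% and 11.9%. Ovary 1 had 1 such member, which weighs as much in the mean as a whole ovary. The *42sp43.L* share of these members is set in part by their choice on 42Sp UMIs.

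Log2 fold changes that changed sign were, against deep cells without the block, *LOC121402047* -0.56 and *gtf3a.L* 0.0228 (ovaries 1 and 2), *btg4.L* 0.301, *ybx2.L* 0.23, *zp4.L* 0.994 and *igfbp5.S* 0.0328 (deep cells of 3000 to 10000 UMIs), *ccn1.S* -0.239 (at least 10 42Sp UMIs) and -0.907 (at most 2 somatic-marker UMIs), *igfbp5.S* 0.036 (ovary 1 added), 0.874 (ovaries 1 and 2) and 0.0499 (UMI totals), *ssb.L* -0.114 (no filter) and -0.293 (no thinning), *velo1.L* -0.0602 (no filter), -0.0809 (ovary 1 added), -1.12 (ovaries 1 and 2) and -0.217 (no thinning), *zp2.L* -0.213 (no thinning), and *zp4.L* 0.0286 (UMI totals) and 0.0856 (at most 2 somatic-marker UMIs). Against low-UMI germ cells they were *col1a1.S* -1.48, *mki67.L* -0.00702 and *ssb.L* -0.0065 (at least 10 42Sp UMIs), *ssb.L* -0.047 (no filter) and -0.0798 (ovaries 1 and 3), and *ybx2.L* -0.0107 (ovary 1 added) and -1.27 (ovaries 1 and 2). With ovaries 1 and 3, *LOC121402047* had 0.905, *gtf3a.L* -0.532, *igfbp5.S* -0.356 and *velo1.L* 0.0723 against deep cells and *ybx2.L* 0.317 against low-UMI germ cells; with ovaries 1 and 2, *ssb.L* had 0.154 against low-UMI germ cells. The cause was not tested. The other changes to named genes were set against the fit without the block, which called no gene. Of these, 840 left the gene uncalled and 150 made it called. Settings that combine the block with another change were not counted. These counts therefore do not show how stable the blocked calls were. Leaving out ovary 2 or 3 without adding ovary 1 leaves 1 sum against 1 and was not run. The 8846 UMIs summed over the members of ovary 1 limit what can be read there.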
